A study of Mus musculus with 2 samples.

Results

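The genes of the proteasome were described here at rest in the chromatin-bound RNA of mouse macrophages. The members were the GENCODE M21 protein-coding genes whose symbol begins with Psma, Psmb, Psmc, Psmd or Psme followed by a digit, without Psmb8 and Psmb9, and 43 of the 55536 annotated genes met this rule. They fell by symbol into 8 genes of the alpha ring (Psma), 9 of the beta ring (Psmb), 7 of the ATPase ring (Psmc), 14 of the non-ATPase part of the cap (Psmd) and 5 activators (Psme). The samples were 2 libraries of 1 group, bone marrow-derived macrophages of the C57BL/6J mouse strain, taken at 0 minutes of a course of 100 ng/ml lipid A, the part of bacterial endotoxin that Toll-like receptor 4 senses. RNA of the chromatin fraction was sequenced after ribosomal RNA was depleted, from 250 ng in replicate 1 and 500 ng in replicate 2. The labels call them biological replicates but give both the same donor entry, and the sex and age of the animals were not collected, so the spread between them may not hold the variation between animals. With 1 group no condition could be compared and no test was made. The share of genes that met the same rule stands beside the main counts of detected members, retained-intron shares, replicate ratios, differences between quantifications and promoter motifs. Other counts were not set against all genes and describe the members only.

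The proteasome is the barrel-shaped protease that degrades proteins marked with ubiquitin. Its core particle is built of outer rings of alpha subunits, which gate the entrance, and inner rings of beta subunits, some of which cut the protein chain. A regulatory cap with an ATPase ring unfolds the substrate, and its non-ATPase subunits bind ubiquitin and remove it, while other caps, the activators, open the core without using ATP. In macrophages the core also makes peptides for MHC class I, for which interferon induces replacement beta subunits. Chromatin-bound RNA is rich in transcripts that are still being made or spliced, so a level here is not a level of mature mRNA.

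Levels are given in TPM (transcripts per 1000000), which divides by length so that genes can be set side by side. The TPM of a gene is summed over its annotated transcripts, so a comparison between genes also depends on which transcripts are annotated. The gene tables held 10970767 and 14207280 expected counts in replicates 1 and 2, of which the proteasome genes held 10411 and 13860, or 0.161% and 0.153% of the counts on nuclear protein-coding genes. All 9 listed macrophage markers were detected, with a summed level of 728 and 618 TPM. Of 28 markers of 7 other cell types 1 was detected in the gene table, Zbtb46, listed for dendritic cells, and 11 stood at 0 in both replicates. The dendritic list summed there to 1.52 and 1.67 TPM, the highest sums among those types. A second transcript table, made from the same reads, put Cd3d (T cell) at 8.34 and 10.8 TPM and Pecam1 (endothelial) at 4.88 and 6.64. It put Mpo (neutrophil) at 1.15 and 1.64 TPM and Col1a1 (fibroblast) at 1.02 and 1.74 TPM. Apart from Zbtb46, the remaining markers of those types stayed below 1 TPM in it. The reading of those markers thus depended on the quantification used.

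Of the 43 proteasome genes, 40 were detected, that is at 1 TPM or more in both replicates, against 46.7% of 22015 nuclear protein-coding genes. The median level of the 43 genes, taken over the means of both replicates, was 17.4 ± 0.827 TPM (SD of the replicate medians, 16.5 and 15.3, n = 2). Of the 43, 28 stood at or above 11.1 TPM, the median of detected protein-coding genes. The level spread widely between genes whose products stand side by side in the assembled particle. Psma1 to Psma7 spanned 12.4-fold, Psmb1 to Psmb7 spanned 11.3-fold and Psmc1 to Psmc6 spanned 5.31-fold between the lowest and the highest mean over all transcripts. Over coding transcripts only, an alternative chosen after seeing the data, the spans were 3.5-fold, 7.37-fold and 14.0-fold, so the ATPase ring was then the widest, with Psmc5 listed at 0 in replicate 1. In the second transcript table, also chosen after seeing the data, the spans were 5.09-fold, 8.39-fold and 6.33-fold. Their size and the order of the rings thus depended on the transcripts and the quantification used. Over all transcripts the spans within replicates 1 and 2 were 13.7-fold and 11.8-fold for Psma1 to Psma7. They were 9.49-fold and 14.4-fold for Psmb1 to Psmb7, and 5.3-fold and 5.32-fold for Psmc1 to Psmc6. The median SD of a detected member was 11.4% of its mean over all transcripts, which describes a typical member and not the genes at the ends of a span. The coding span of the ATPase ring rests on Psmc5, at a mean of 0.955 ± 1.35 TPM (SD, n = 2). In the order of levels of all 43 genes, 38 of 42 neighbouring pairs had replicate ranges that overlapped, so most neighbours could not be ranked against each other.

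**Figure D1:**
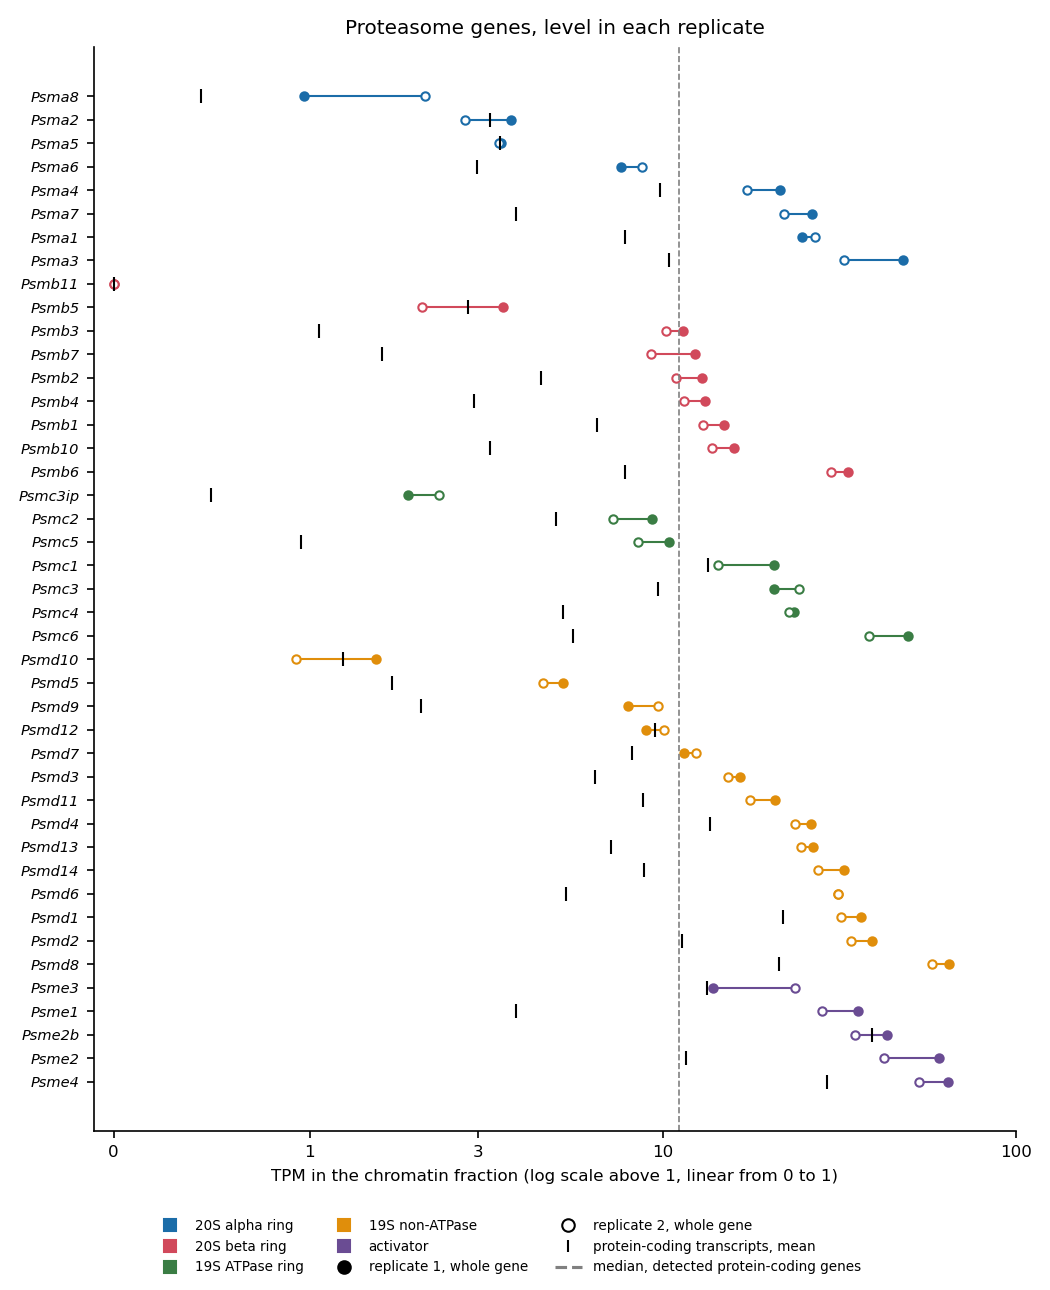
Level of each of the 43 proteasome genes in TPM (horizontal axis, logarithmic above 1 and linear from 0 to 1), grouped by subcomplex and sorted by mean. Filled circles are replicate 1, open circles replicate 2, black ticks the mean level on transcripts annotated as protein-coding, and the dashed line is the median of detected protein-coding genes, 11.1 TPM. Psmd8 and Psme4 stand highest with overlapping ranges and Psmb11 at 0, and for most genes the black tick lies well to the left of the circles.

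In the alpha ring, Psma3 stood highest, at 47.8 TPM in replicate 1 and 32.6 in replicate 2. Psma1 followed at 24.8 and 26.9 TPM and Psma7 at 26.4 and 22.1 TPM, and the ranges of these 2 overlapped each other but not that of Psma3. Psma5 stood at 3.48 and 3.43 TPM. Psma2 stood at 3.72 and 2.76 TPM, overlapping Psma5, and both lay far below Psma3 in the gene table. Psma8 encodes the alpha subunit that takes the place of the Psma7 product in the testis. It stood at 0.97 and 2.12 TPM on 8 and 21 counts, below the detection limit in replicate 1 only.

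In the beta ring, the genes of the constitutive catalytic subunits stood far apart. Psmb6 encodes the beta1 subunit, which cuts after acidic residues, and was at 33.4 and 30.0 TPM. Psmb7 encodes beta2, the trypsin-like subunit, and was at 12.3 and 9.23 TPM. Psmb5 encodes beta5, the chymotrypsin-like subunit and the main target of proteasome inhibitor drugs, and was at 3.52 and 2.08 TPM. The replicate ranges of these 3 genes did not overlap, although Psmb5 rested on 24 and 20 counts. Over coding transcripts only, Psmb7 lay lowest of the 3, at 1.89 and 1.31 TPM, below Psmb5 at 3.52 and 2.08 TPM and without overlap, and Psmb6 stayed highest at 8.51 and 7.12 TPM. Psmb10, the interferon-inducible substitute for Psmb7, was at 15.9 and 13.8 TPM, above the range of Psmb7. The other inducible subunit genes, which the rule leaves out, stood at 8.85 and 7.94 TPM for Psmb8, the substitute for Psmb5, and at 12.7 and 11.2 TPM for Psmb9, the substitute for Psmb6. Over all transcripts Psmb8 lay above Psmb5 and Psmb9 below Psmb6, with no overlap in either pair. Over coding transcripts Psmb8, at 0.489 and 0.43 TPM, lay below Psmb5 instead, while Psmb9, at 2.82 and 1.8 TPM, stayed below Psmb6. The other beta genes with no catalytic role, Psmb1 to Psmb4, had means from 10.8 TPM for Psmb3 to 14.0 TPM for Psmb1 over all transcripts. Over coding transcripts they lay further apart, with means from 1.06 TPM for Psmb3 to 6.53 TPM for Psmb1. In the second transcript table Psmb3, at 8.51 and 10.9 TPM, lay below the others, whose replicate values ran from 12.9 to 24.5 TPM.

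Psmb11 encodes the beta5 subunit of cortical thymic epithelium, and was the 1 member listed at 0 counts in both replicates of the gene table. A count of 0 allows up to 3 counts by counting error alone, or 0.274 and 0.212 RPM (reads per 1000000) in replicates 1 and 2. The second transcript table, made from the same reads, gave the gene 262 and 261 estimated counts, or 2.72 and 2.8 TPM, all on the transcript Psmb11-201 (chr14:54625310-54629556). The level of Psmb11 therefore depended on the quantification used, and neither value can be preferred from these tables.

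In the ATPase ring, Psmc6 stood highest, at 49.5 and 38.3 TPM. Psmc4, at 23.5 and 22.8 TPM, and Psmc3, at 20.7 and 24.3 TPM, followed with overlapping ranges. Psmc2, at 9.34 and 7.21 TPM, and Psmc5, at 10.4 and 8.48 TPM, stood lowest of the ring and also overlapped. Psmc3ip, at 1.90 and 2.32 TPM, is taken in by its symbol only: it encodes a partner of the meiotic recombinases and no part of the proteasome. Without it 39 of 42 members were detected and the median was 18.1 TPM.

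Among the non-ATPase genes, Psmd8 had the highest mean of all members in the gene table, at 64.7 and 57.7 TPM, with a range that overlapped that of Psme4. In the second transcript table Psme4, at 75.8 and 109.0 TPM, had the higher mean and Psmd8 stood at 54.8 and 89.0 TPM. Psmd2, at 39.0 and 34.0 TPM, and Psmd1, at 36.5 and 31.9 TPM, came next in this group and overlapped each other. Both encode large scaffold subunits on which shuttle factors that carry ubiquitin-marked proteins can dock. Psmd14, which encodes the deubiquitinase of the cap, was at 32.6 and 27.5 TPM, and Psmd4, which encodes a ubiquitin receptor, at 26.2 and 23.7 TPM. Psmd10 at 1.54 and 0.93 TPM, Psmd5 at 5.21 and 4.57 TPM and Psmd9 at 7.99 and 9.66 TPM were the lowest 3 of this group. These 3 genes encode chaperones that help the ATPase ring to assemble and leave the finished particle. The lowest means of the group in the gene table were thus those of genes that are not subunits, although the range of Psmd9 overlapped that of Psmd12, the next in order. Over coding transcripts the same 3 had the lowest means, from 1.24 to 2.06 TPM. In the second transcript table Psmd9, at 10.3 and 11.4 TPM, overlapped Psmd7, at 7.89 and 14.2 TPM, and Psmd12, at 8.01 and 14.7 TPM.

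The activators held the highest group median, 39.1 ± 5.81 TPM (SD, n = 2), against 19.4 ± 3.01 for Psma1 to Psma7, 11.9 ± 1.46 for Psmb1 to Psmb7, 20.0 ± 1.49 for Psmc1 to Psmc6 and 22.1 ± 2.04 for the Psmd genes. With 5 activators, that median and its SD are the values of 1 gene, Psme2b, whose reads may include those of a neighbouring gene, as described below. Psme4, whose product PA200 caps the core in the nucleus, was at 64.0 and 53.1 TPM on 1846 and 2279 counts. Psme1 and Psme2 encode the alternating subunits of the interferon-inducible activator PA28 and lie close together on chromosome 14. Psme1 stood at 35.7 and 28.3 TPM and Psme2 at 60.4 and 42.2 TPM, without overlap. Psme3, whose product forms the nuclear activator PA28 gamma, was at 13.9 and 23.7 TPM, the lowest of the group over all transcripts of the gene table. Over coding transcripts Psme1 was the lowest, and in the second transcript table Psme1, at 18.8 and 23.9 TPM, lay below Psme3 in mean, at 20.8 and 37.2 TPM, with overlap. Psme4 and Psmd8 were the only 2 members within the top 10% of detected protein-coding genes.

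Psme2b, a copy of Psme2 with 1 exon, supplied 19.6% of the TPM of the activator genes, at 43.2 and 35.0 TPM. It lies at chr11:48945354-48946190 on the minus strand of mm10, while Psme2 lies at chr14:55587441-55591113, also on the minus strand. Over the 717 bases of the coding sequence the 2 genes were 99.3% identical, with 5 substitutions counted from the A of the start codon of Psme2: C312T, A369G, C489T, C519T and C543T. The longest stretch without a difference was 311 bases, at the scale of the 250 to 400 base fragments in these libraries. Coding bases 364 to 543, which hold 4 of the 5 differences, are shown from 1 GENCODE coding transcript of each gene with the differing bases in capitals, since these bases are what separates reads of the 2 coding sequences.
Psme2: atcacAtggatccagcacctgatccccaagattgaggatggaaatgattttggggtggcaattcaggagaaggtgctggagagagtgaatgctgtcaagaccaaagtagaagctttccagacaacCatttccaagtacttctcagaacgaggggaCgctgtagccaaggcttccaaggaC
Psme2b: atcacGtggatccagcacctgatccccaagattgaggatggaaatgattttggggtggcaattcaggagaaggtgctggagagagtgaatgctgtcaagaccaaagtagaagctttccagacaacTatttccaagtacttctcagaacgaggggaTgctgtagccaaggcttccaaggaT

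The gene table gave Psme2b 267 and 321 counts and Psme2 226 and 287 counts. The posterior SD of the count, deposited with the gene table and covering the sharing of reads between genes, was 0.9 and 1.41 counts for both genes, so the split itself was held firmly by the fit. The second transcript table gave Psme2b 436 and 605 counts and split Psme2 otherwise: the coding transcript of Psme2 with the most counts had 73.7 and 95.5 counts in the first transcript table and 30.9 and 25.7 in the second. Psme2b was thus not below Psme2 in counts in either library of the gene table.

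Psme2b does not stand alone on its chromosome. The last exon of 9930111J21Rik1, a gene on the same strand, runs into the first 41 bases of Psme2b, and 9930111J21Rik1 was at 67.0 and 62.6 TPM on 2023 and 2803 counts. Psme2b also lies in an intron of Gm12185, again on the same strand, which had 175 and 233 counts. Reads of a Psme2b transcript and reads that run on past the end of 9930111J21Rik1 cannot be told apart in these tables.

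**Figure D2:**
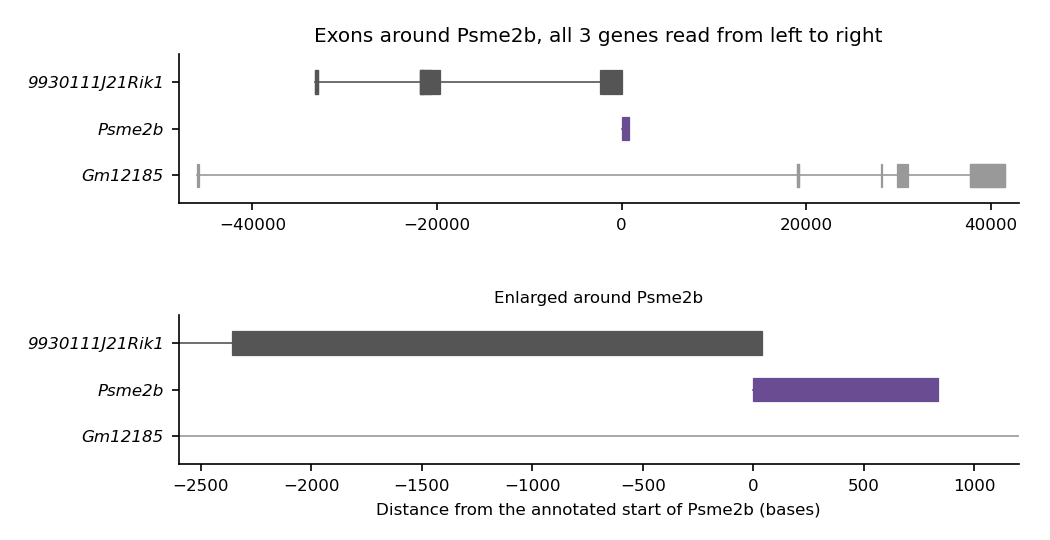
Annotated exons (boxes) and introns (lines) of Psme2b, 9930111J21Rik1 and Gm12185, by distance in bases from the annotated start of Psme2b, with the direction of transcription from left to right; the lower panel enlarges the region around Psme2b. The last exon of 9930111J21Rik1 ends 41 bases into Psme2b, and no exon of Gm12185 lies near it.

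Other members share sequence or place with other genes too. Of the 43 members, 17 had at least 1 near copy elsewhere among GENCODE transcripts, at 90% identity or more over 200 bases or more of coding sequence, and 19 of the 34 copies had no count in either replicate. The search was made for the members only, so no share over all genes stands beside this count. The copy of Psmd11 named A730017L22Rik had 184 and 251 counts, at 97.9% identity over 1266 bases. The copy of Psma4 named Gm6542 had 34.9 and 73.2 counts, at 96.8% identity over 783 bases, beside 154 and 197 counts on Psma4. Exons of 12 members overlapped an exon of another gene, and for 6 of them that gene had 100 counts or more in both replicates: Psmc3 with Slc39a13, Psmd1 with Htr2b, Psmd13 with Sirt3, Psmb7 with Nek6, Psme1 with Emc9, and Psme2b. Apart from Psme2b these pairs lie on opposite strands, and no label says if the counting used strand, so the reads of such a pair cannot be told apart.

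The level of a gene in these tables is the sum over its annotated transcripts, which include transcripts that do not encode a protein. Counting only transcripts annotated as protein-coding, the median over detected members fell from 19 ± 2.26 to 6.48 ± 0.163 TPM (SD, n = 2), and that over 10284 detected protein-coding genes from 11.1 ± 0.332 to 5.33 ± 0.0893 TPM. The median of the members was thus 1.71 times that of detected genes over all transcripts and 1.22 times over coding transcripts. Coding transcripts held 34.7% of the TPM of a detected member, by median, against 54.0% for detected protein-coding genes.

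This moved single genes far in the order of levels. Psmc6 was the 4th highest member over all transcripts and the 22nd over coding transcripts, at 5.94 and 5.2 TPM. Psme1 went from the 9th place to the 27th, at 3.55 and 4.12 TPM. Psmc1 went the other way, from the 22nd to the 6th, at 14.4 and 12.3 TPM. Psme2b, which has a single coding transcript, came first, followed by Psme4 at 33.8 and 24.6 TPM. Psmd1 at 22.3 and 21.6 TPM and Psmd8 at 21.8 and 20.7 TPM came next with overlapping ranges. For Psmc5 the coding transcript Psmc5-201 was listed at 0 in replicate 1 and at 1.91 TPM in replicate 2, while Psmc5-202, annotated for nonsense-mediated decay, took 124 and 117 counts.

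The class that held most of the TPM in many members was that of retained introns, transcripts which keep an intron that is spliced out of the mRNA. Of the 43 members, 28 had such a transcript, and 24 of these had 100 expected counts or more in both replicates. In 15 of the 24, retained-intron transcripts held 50% or more of the TPM of the gene, where 48.1% of 5042 protein-coding genes under the same minimum did. The median share, over the means of both replicates, was 60.9% ± 0.194 (SD of the replicate medians, 60.3% and 60.6%, n = 2), against 49.0% ± 0.566. By expected counts, which do not divide by length, the medians were 56.9% and 31.2%. The share is a division of reads among annotated transcripts made by the fit and no count of intron reads, and RNA not yet spliced cannot be told apart from a retained intron.

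Shares ranged from 8.28% to 90.2% between genes. Psmb3 had the highest, at 90.3% and 90.1% in replicates 1 and 2. Psme1 followed at 90% and 82.0% and Psmb7 at 84.6% and 85.8%. For Psmb7 the single transcript Psmb7-202 took 281 of its counts in replicate 1 and 320 in replicate 2, against 18 and 18.6 on the coding transcript. The lowest shares were those of Psmc1, at 11.5% and 5.05%, Psmd7, at 23.5% and 39.1%, and Psmd1, at 36.6% and 30.4%. By group, the medians were 85.2% over 3 beta genes, 81.5% over 2 activators, 65.7% over 4 alpha genes, 48.7% over 4 ATPase genes and 44.1% over 11 non-ATPase genes. Of the genes left out by the rule, Psmb8 had 94.5% and 94.6% and Psmb9 75.4% and 80.5% of their TPM on retained-intron transcripts.

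**Figure D3:**
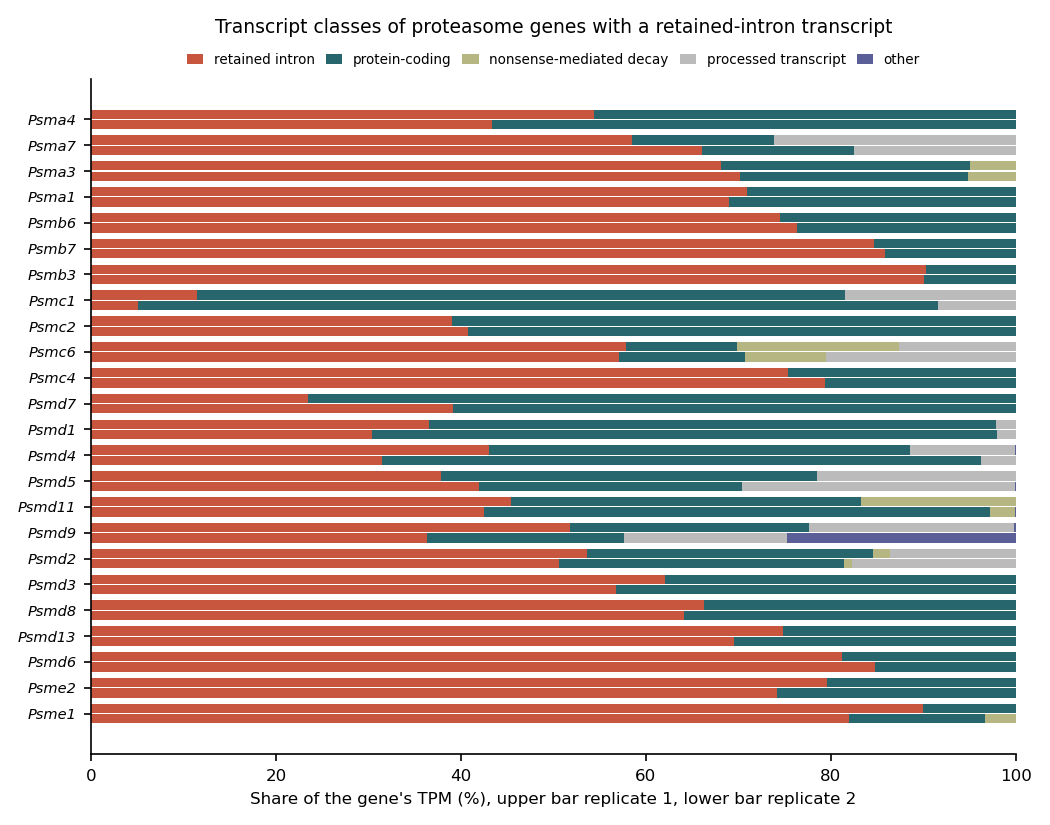
Share of the TPM of each gene (percent, horizontal axis) on transcripts annotated as retained intron, protein-coding, nonsense-mediated decay, processed transcript or another class, for the 24 members with a retained-intron transcript and 100 counts or more per replicate. The upper bar of each pair is replicate 1 and the lower replicate 2; retained-intron shares run from 8.28% for Psmc1 to 90.2% for Psmb3, as means of both.

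Short transcripts can lift a TPM on very few reads. Psme2-203, a retained-intron transcript, received 2.28 counts in replicate 1, which came to 13.8 of the 60.4 TPM of Psme2, and 0 in replicate 2. The counts of Psme2 as a whole, 226 and 287, differed by a log2 ratio of -0.16 after scaling for depth.

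The replicates were compared on expected counts, which short transcripts do not lift. On expected counts scaled by the trimmed mean of M-values, 0 of 42 members with a mean of 10 or more differed 2-fold or more, against 2.79% of 15122 genes, a background low enough that a count of 0 among so few genes says nothing particular about them. The median log2 ratio of replicate 2 over replicate 1 was -0.07 over the members and 0.00 over all genes. The extremes were Psma8 at 0.86, on 8 and 21 counts, and Psmb5 at -0.75, on 24 and 20 counts. By gene table TPM, 33 members were higher in replicate 1 and 9 in replicate 2, but in the second transcript table, which was set beside it after seeing the data, 1 was higher in replicate 1 and 42 in replicate 2. The tally of TPM therefore gives no direction between the replicates.

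The second transcript table allowed the same reads to be set against another quantification. Of the 43 members, 4 differed 2-fold or more in mean TPM + 1 between the tables, against 22.9% of 12857 protein-coding genes. All 4 were higher in the second table: Psma2 5.09-fold, Psmb11 3.76-fold, Psma5 2.96-fold and Psmc1 2.01-fold. With both tables rescaled over nuclear protein-coding genes, Psmc1 was 1.66-fold higher and no longer counted. For Psma2 the gap lay in Psma2-202, a coding transcript with 0 and 2.43 counts in the first transcript table and 381 and 546 in the second. There the level of Psma2 was 16.5 and 24.7 TPM, so its low place in the alpha ring did not hold in that table, whereas Psmb5 stood there at 2.98 and 3.42 TPM. Psma5 stood at 9.89 and 14.5 TPM in the second table. Over all members the counts of the second table were higher in both replicates, 1.91 times by median, against 1.75 times over detected protein-coding genes.

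**Figure D4:**
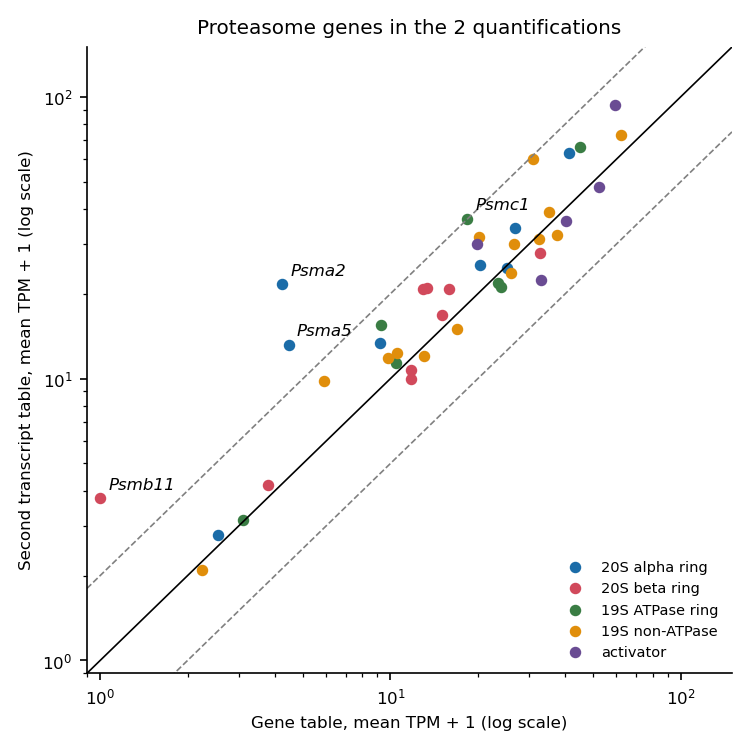
Mean TPM + 1 of each of the 43 members in the gene table (horizontal axis, logarithmic) and in the second transcript table (vertical axis, logarithmic), coloured by subcomplex; the solid line marks equal levels and the dashed lines a 2-fold difference. Psma2, Psma5, Psmb11 and Psmc1 lie on or above the upper dashed line and no member lies below the lower.

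Genes that act around the proteasome were taken from a list of 32, of which 31 were found in the annotation and 30 were detected, with a median of 15.9 ± 3.76 TPM (SD, n = 2). The highest was Ecpas, which encodes a scaffold that binds proteasomes, at 98.2 and 92.5 TPM. Nfe2l2, a transcription factor of the oxidative stress response, was at 64.5 and 76.8 TPM, and Vcp, the ATPase that extracts ubiquitin-marked proteins from complexes and membranes, at 66.0 and 65.3 TPM. Nfe2l1, the transcription factor that raises proteasome genes when the proteasome is blocked, was at 39.0 and 38.2 TPM. Pomp, the chaperone of beta ring assembly, was at 25.9 and 12.9 TPM. The lowest were Psmg4, the 1 gene not detected, at 0.41 and 1.45 TPM, Ubqln2, a shuttle factor, at 1.03 and 1.6 TPM, and Psmg1, at 3.35 and 1.32 TPM. Psmg1 and Psmg4 encode chaperones of alpha ring assembly.

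Promoter sequence was searched for the cores of elements known to act at proteasome or housekeeping genes, over the 250 bases before the RefSeq start site on GRCm38.p6, on both strands. RefSeq entries matched 36 of the 43 members by symbol. The core of the antioxidant response element, TGACNNNGC, which Nfe2l1 and Nfe2l2 can bind, was in 5 members (13.9%) and in 12.2% of 16522 protein-coding genes. CCAAT was in 14 members (38.9%) and in 39.2% of those genes. The ETS core CCGGAAG was in 12 members (33.3%), among them Psmc3ip, and in 10.5% of those genes. Those genes were not limited to detected ones, whereas most members were detected, so the compared sets are unlike in this. No share over detected genes alone is given here. These windows can hold bases of annotated exons. With such bases masked, an alternative chosen after seeing the data, the ETS core stayed in 7 members (19.4%) and in 6.6% of the genes, the antioxidant response element core in 5 (13.9%) and 8.99%, and CCAAT in 11 (30.6%) and 32.4%. None of the 3 motifs contains another, and a match is a description of the letters, not of a bound site. Members with the ETS core ranged from 2.11 to 58.5 TPM in mean and the others from 0 to 61.2 TPM. The 2.11 TPM was that of Psmc3ip, no part of the proteasome, and the next lowest with the core was Psma6 at 8.18 TPM. Psmb11, Psmd10, Psmb5, Psma2, Psma5 and Psmd5, with means from 0 to 4.89 TPM in the gene table, lay below Psma6, and their windows lacked the core. The level of Psma6 was taken as a limit after seeing these values, and the order depended on the quantification. Over coding transcripts Psma2 and Psma5 had higher means than Psma6, with overlapping ranges. In the second transcript table Psma2 lay above Psma6 without overlap. The median level over all transcripts was lower for members with the core than for those without it. Above the level of Psma6 the ranges of both sets overlapped widely, and a difference in level was not tested.

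The 5 members with the antioxidant response element core were Psmb5, Psmb6, Psmc6, Psmd12 and Psmd9, with levels from 2.8 to 43.9 TPM. Psmb5 and Psmb6, the lowest and the highest of Psmb1 to Psmb7 over all transcripts though Psmb3 and Psmb7 lay below Psmb5 over coding transcripts, both hold it, and Psmc6 holds it together with the ETS core. The windows of these 3 and that of Psmd2, as an example with the ETS core only, are shown on their own strand without bases of any annotated exon, from RefSeq on GRCm38.p6, with both cores in capitals. They span chr14:45329574-45329787 (plus strand) for Psmc6, chr14:54618023-54618245 (minus strand) for Psmb5, chr11:70525107-70525356 (plus strand) for Psmb6 and chr16:20651402-20651651 (plus strand) for Psmd2.
Psmc6: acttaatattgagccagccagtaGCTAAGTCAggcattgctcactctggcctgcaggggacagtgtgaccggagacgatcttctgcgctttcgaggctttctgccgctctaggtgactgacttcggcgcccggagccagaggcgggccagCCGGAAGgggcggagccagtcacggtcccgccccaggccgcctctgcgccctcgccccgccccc
Psmb5: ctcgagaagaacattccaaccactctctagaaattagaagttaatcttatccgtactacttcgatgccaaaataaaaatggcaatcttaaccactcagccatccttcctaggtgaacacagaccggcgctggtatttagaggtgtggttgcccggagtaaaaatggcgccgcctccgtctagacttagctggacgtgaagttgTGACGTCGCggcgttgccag
Psmb6: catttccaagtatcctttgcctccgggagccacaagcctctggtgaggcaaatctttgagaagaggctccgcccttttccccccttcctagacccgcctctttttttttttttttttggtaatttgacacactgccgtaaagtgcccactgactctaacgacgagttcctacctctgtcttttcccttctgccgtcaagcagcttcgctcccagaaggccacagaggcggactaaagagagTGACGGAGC
Psmd2: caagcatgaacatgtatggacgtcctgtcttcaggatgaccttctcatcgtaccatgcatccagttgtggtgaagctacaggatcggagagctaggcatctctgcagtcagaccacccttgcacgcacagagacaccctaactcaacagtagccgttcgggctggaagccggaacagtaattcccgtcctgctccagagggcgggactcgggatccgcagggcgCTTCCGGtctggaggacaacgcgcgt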

How the data were processed

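The authors deposited 3 tables per library, built on mm10 with GENCODE M21 according to the notes that came with them. The gene table and one of the transcript tables, called the first here, have RSEM's columns, and the second transcript table has those of kallisto. The aligner, tools and versions were not given in the sources used here. Expected counts, as the authors deposited them, are fitted numbers of reads and need not be whole. TPM, as deposited, divides these by effective length and sums to 1000000 in a table. Rows that name no annotated gene held 0.338% and 0.27% of counts and were left out.

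Members were found by symbol in the GENCODE M21 annotation. A gene was called detected at 1 TPM in both replicates, retained-intron shares needed 100 expected counts in both, and replicate ratios used unrounded expected counts scaled with edgeR 4.0.16 (TMM) with 0.5 added after scaling; the ratio script was tested on simulated data. For ratios of one quantification to the other, 1 TPM was added to each mean. DESeq2 1.42.0 size factors were an alternative. Near copies were found with blastn 2.17.0. Medians over members were taken over the means of both replicates and carry the SD of the replicate medians, so a median can lie outside both replicate medians. With n = 2 no test was made. The floor of 3 counts covers the error of counting alone, because reads are not independent molecules. The call limit for ratios was 2-fold. The members, lists and alternatives were chosen with earlier results of these data known. The rule for naming genes took the highest 3 and lowest 3 of each group, the catalytic and activator genes, Psma8, Psmc3ip and the 3 highest and lowest retained-intron shares; the other members named were chosen after their values were seen. Of the list of 32 genes around the proteasome, AI314180 was matched as Ecpas through RefSeq synonyms, and Paaf1 was not analysed here.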

Additional observations from a re-analysis of the deposited data

How the results depend on the processing

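Of 36 alternatives over 6 results, 19 stayed within the spread or the range allowed, 16 moved and 1 reversed. The median level of the members, 17.4 TPM, was 20.6 TPM in the second transcript table, 19 TPM over detected members only, and 15.3 to 16.5 TPM in single replicates. Rescaled to a sum of 1000000 over nuclear protein-coding genes it was 68.2 TPM, and 65.6 TPM for the second table rescaled likewise; over coding transcripts only it was 5.57 TPM, both of these chosen after seeing the data. The median retained-intron share, 60.9%, was 56.9% by expected counts, 58.2% in the second table, 62.3% with a minimum of 1 count, 33.5% with a minimum of 500 counts, which leaves 1 member, Psmd1, 59.5% without Psme2, also chosen after seeing the data, and 60.3% to 60.6% in single replicates. The median log2 replicate ratio, -0.07, reversed to 0.06 with library size as the only scaling, where the median of all genes was 0.13. In the second transcript table Psma8 alone, 1 member, reached a 2-fold replicate ratio, with a log2 ratio of 1.03. The count of members that differ 2-fold between the tables was 4, and 3 to 10 in single replicates: 3 without replicate 2 and 10 without replicate 1. It was 3 when both tables were rescaled over nuclear protein-coding genes, where Psmc1 was lost. The share over all genes, 22.9%, is given for the main setting only. The counts under the other settings thus have no background beside them. No paired analysis was possible because the 2 libraries form 1 group. Depth limits the 10 members with under 100 counts in a replicate, among them Psmb5, Psma5 and Psma8.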
